A study of Danio rerio with 24 samples.

Results

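Complement genes were examined in liver, kidney and muscle of adult zebrafish after an inflammatory stimulus. Of 8 listed components, *c3b.1*, *c3b.2*, *c5*, *c6*, *c8a*, *c8b*, *c9* and *cfb*, 5 had at least 1 probe whose accession belonged to the gene, which gave 11 of the 43603 probes and 5 of the 12858 genes matched on the arrays. *c3b.2* had 4 probes, *c6* had 3, *cfb* had 2, and *c3b.1* and *c8a* had 1 each. No probe was matched to *c5*, *c8b* or *c9*, so these 3 genes are not analysed here. The gene listed as *c6* carries the current symbol *c6.2*. A related gene, *c6.1*, had no matched probe, so *c6* below stands for *c6.2* alone.

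Complement is a cascade of plasma proteins that marks microbes for uptake, attracts phagocytes and perforates membranes. It is started by the classical, lectin or alternative route, all of which cleave C3, and it ends with the assembly of C5b, C6, C7, C8 and C9 into the membrane attack complex. In vertebrates most of these proteins are secreted by hepatocytes, and several of them belong to the acute-phase proteins of the liver. The C3 fragments act as opsonins and as inflammatory peptides, factor B supplies the protease of the alternative route, and the terminal components form the pore.

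The fish were wild type and 9 months old, and their tissues were taken 3 h after an injection into the peritoneum. The injection held 10 μg of LPS, the lipopolysaccharide of Gram-negative bacteria, or, in the controls, the same volume of PBS. The 6 groups, liver, kidney and muscle after LPS or PBS, held 4 arrays each, and RNA pooled from 3 fish was hybridized to each of the 24 one-colour arrays. The labels speak of a differential diet and give the diet Normal to all samples, and the sex of the fish is not given. Since the text describes pools sampled for the 3 tissues, arrays of the same number may come from the same fish, and a pool hides the spread between its fish.

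All levels below are log2 values of the processed signal relative to the 75th percentile of the array, averaged over the spots of a probe, so 0 is the signal at that percentile. Levels of different probes are not set against each other, because probes differ in how well they bind. The probe with the highest mean over the 24 arrays stands for each gene. Differences were tested with limma, with Benjamini-Hochberg adjustment over all probes tested, and for a call 1 or more probes of a gene had to reach an adjusted p under 0.05. All 11 probes passed the filter on raw signal in each of the 7 comparisons, *cfb* in the liver only through LPS replicate 2.

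The raw 75th percentile lay between 378.8 and 4848 over the 24 arrays, and between 39.4% and 84.8% of the spots were well above background, with 0 saturated spots. The tissue labels were set against marker lists, each summed as linear signal relative to the 75th percentile. The skeletal muscle list (17 of 18 genes matched) was at 1145 to 5185 in muscle, 93.5 to 885 in kidney and 14.1 to 159 in liver. Exocrine pancreas markers (11 of 14 matched) summed to 680 to 2020 in the PBS livers and 1857 to 5022 in the LPS livers, against 11.2 to 61.7 in kidney. In muscle they were at 170 to 783 after PBS and 36.1 to 1323 after LPS, and the PBS muscles overlapped the PBS livers. The kidney tubule list (18 of 22 matched) was low in muscle, at 2.52 to 9.99, but overlapped between kidney and liver. After PBS its sum was 41.2 to 252 in kidney and 37.4 to 217 in liver. After LPS it was 116 to 245 and 86.5 to 187. Blood-forming and white cell markers (14 of 19 matched) also overlapped, at 98.2 to 531 in PBS kidneys and 37.8 to 238 in PBS livers. After LPS they were at 209 to 364 and 154 to 218. Of the single tubule markers, *slc12a3*, at 0.85 to 4.90 in kidney and -3.66 to 0.54 in liver, had a higher range in kidney. So had *slc20a1a*, at 2.30 to 5.06 and -2.03 to 2.51, whereas *cdh17* ranged from 3.12 to 5.73 and from 2.60 to 5.65.

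Hepatocyte markers (20 of 22 genes matched) did not follow the tissue label on every array. In the PBS kidneys the summed signal was 151.7, 2386, 256.6 and 273.6 for replicates 1 to 4, and in the LPS kidneys it was 132.6, 1284, 155.3 and 203.9. The PBS livers gave 806.5, 3461, 1424 and 2504, and the LPS livers 2860, 326.8, 2962 and 4272. Replicate 2 of both kidney groups therefore lay within the range of the livers, and liver LPS replicate 2 lay close to the other kidneys. Exocrine pancreas markers summed to 2044 on liver LPS replicate 2, 61.7 on kidney LPS replicate 2 and 24.3 on kidney PBS replicate 2. By this list alone the 3 arrays lay with their labelled tissue. The skeletal muscle sum was 158.9 on liver LPS replicate 2 and 17.1 to 27.9 on the other LPS livers. That value lay within the kidney range of 93.5 to 885. The kidney tubule sum of the same array was 186.8, the highest of the LPS livers and within the LPS kidney range of 116 to 245. The source of these differences was not tested. By single markers kidney PBS replicate 3 stood higher than its sum of 256.6 shows. Its hepatocyte markers lay at a median of 3.23 log2 above the median of the other PBS kidneys. By the same measure replicates 1 and 4 lay at -4.55 and -3.23, and replicate 2 at 6.75. Replicate 3 was not among the arrays left out as a set below.

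In muscle the sums were 244.4, 1638, 320.1 and 358.3 after PBS and 151.0, 211.6, 179.0 and 1007 after LPS, so that PBS replicate 2 and LPS replicate 4 stood apart. The markers above all other arrays of the group numbered 20 of 20 on kidney PBS replicate 2, 17 of 20 on kidney LPS replicate 2, 20 of 20 on muscle PBS replicate 2 and 18 of 20 on muscle LPS replicate 4. On liver LPS replicate 2, 20 of 20 markers lay below the other LPS livers. Liver PBS replicate 1 was also the lowest of its group for 20 of 20 markers, but its sum was 806.5. Of the defining hepatocyte markers, *fabp10a*, the liver fatty acid binding protein, ranged from 3.05 to 8.44 in kidney, from 5.14 to 9.0 in liver and from 3.93 to 8.12 in muscle, *ambp* ranged from -4.17 to 6.81, from 1.78 to 8.19 and from -0.31 to 5.17, and *ttr* was well above background on 4, 7 and 4 of 8 arrays. Tests below are given with and without these 5 arrays, or those of the tissue tested, a choice made after seeing the data. The group means and their order hold for all arrays. *c3b.1*, *c3b.2*, *c8a* and *cfb* follow the hepatocyte sum in the liver, with r from 0.871 to 0.979. Leaving arrays out by these markers therefore favours a gap between the liver and the other tissues. The p values without them take no account of this. In these bulk samples fewer cells of a type and less RNA per cell cannot be told apart.

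The C3 family came first. *c3b.1* and *c3b.2* belong to the family of C3, the protein on which all routes converge. The paper states that they were first predicted as orthologs of human C3 and later proposed to be its paralogs. Their role in the cascade was not tested here. In the PBS livers *c3b.2* was at 0.65, 3.21, 1.35 and 2.44 for replicates 1 to 4. In the PBS kidneys it was at -4.64, 1.51, -2.04 and -5.19, and in the PBS muscles at -2.75, -0.90, -1.80 and -2.74. The liver arrays lay above all muscle arrays, and above every kidney array but replicate 2.

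After LPS *c3b.2* was at 2.51, -2.89, 1.77 and 2.07 in the liver. In the kidney it was at -4.57, 0.44, -3.10 and -4.88, and in the muscle at -3.56, -1.96, -3.30 and -1.17. Liver LPS replicate 2 was below kidney LPS replicate 2 and lay among the muscles, while the other 3 livers were above all kidneys and muscles. In the kidney this probe was well above background on 3 of 4 arrays after PBS and on 2 of 4 after LPS. The 4 probes of *c3b.2* gave r values between 0.861 and 0.980 with each other over the 24 arrays, which describes arrays of 3 tissues. The dimmest of them was well above background on 0 of 4 arrays in the LPS kidneys and LPS muscles, and no fold is given for it.

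*c3b.1* was at -2.62, 0.82, -1.15 and -0.05 in the PBS livers. It was at -4.94, -0.67, -4.96 and -2.51 in the PBS kidneys and at -2.68, -1.46, -3.72 and -3.52 in the PBS muscles. Liver PBS replicate 1, the array of that group with the lowest hepatocyte markers, overlapped both other tissues. After LPS the livers were at 0.09, -1.97, -0.29 and 0.06, the kidneys at -3.92, -1.47, -4.78 and -4.40, and the muscles at -2.78, -2.94, -3.51 and -3.26. *c3b.1* was well above background on only 1 of 4 LPS kidneys, replicate 2 was the highest kidney in both treatments, and liver LPS replicate 2 was the lowest liver of its group. Whether the probes of these related genes also bind each other's transcripts was not tested.

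*cfb* encodes factor B, the serine protease that forms the C3 convertase of the alternative route. Its PBS livers were at 4.65, 6.77, 5.30 and 6.29. The PBS kidneys were at -4.51, 5.34, 1.89 and -2.51, and the PBS muscles at 0.51, 3.70, 1.19 and -0.05. The livers were above all muscles, and the only kidney within their range was replicate 2.

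After LPS *cfb* was at 7.28, 1.71, 6.62 and 7.50 in the liver. The kidneys were at -0.09, 5.13, -1.03 and -2.21, and the muscles at -0.22, -0.18, -0.02 and 4.34. Of the LPS arrays, 3 livers were the highest, followed by kidney replicate 2 and muscle replicate 4, with liver replicate 2 next. The SD was 4.43 (n = 4) in the PBS kidneys, around a mean of 0.05, and 0.96 (n = 4) in the PBS livers, around 5.75. Without kidney replicate 2 the SD of the PBS kidneys was still 3.27 (n = 3), around a mean of -1.71. The 2 probes of *cfb* moved together over the 24 arrays, with r = 0.998.

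*c8a*, the alpha chain of the pore-forming component C8, was at 1.81, 4.38 and 3.84 in PBS livers 1, 2 and 4, the spot of replicate 3 being left out as an outlier. The PBS kidneys were at -2.45, 2.66, -0.67 and -1.64, and the PBS muscles at -2.61, 0.48, -1.98 and -3.11. Kidney replicate 2 was again within the liver range, and all muscles were below the livers. After LPS the livers were at 4.29, -2.26, 4.13 and 4.28, the kidneys at -2.09, 2.42, -2.44 and -1.62, and the muscles at -3.01, -4.40, -3.20 and 0.88. The mean of the LPS livers was 2.61 ± 3.25 (SD, n = 4), and without replicate 2 it was 4.24 ± 0.09 (SD, n = 3).

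*c6* encodes the component that binds C5b and starts the membrane attack complex. As measured through *c6.2* alone, it did not follow the other members with a probe, and nothing is known here of *c6.1*. In the PBS livers it was at 0.69, 2.78, 2.07 and 2.94. In the PBS kidneys it was at 2.87, 3.27, 1.32 and 3.58, and in the PBS muscles at 1.09, 2.88, 0.80 and 2.63. The 3 tissues overlapped throughout.

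After LPS *c6* was at 1.96, 3.50, 3.19 and 2.48 in the liver, at 2.46, 2.67, 3.09 and 3.40 in the kidney and at 0.81, 2.86, 1.31 and 0.64 in the muscle. Liver LPS replicate 2, the lowest liver of its group for the other 4 members, had the highest *c6* value of that group. The 3 probes of *c6* gave r values between 0.921 and 0.981 with each other over 23 arrays. Between *c6* and the other members r over the arrays was -0.08 with *cfb*, -0.01 with *c3b.2*, 0.12 with *c8a* and 0.23 with *c3b.1*. Among those 4 genes r ranged from 0.811, for *c8a* with *c3b.1*, to 0.955, for *c3b.2* with *cfb*. These correlations describe arrays that share tissue and depth and carry no test.

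**Figure D1:**
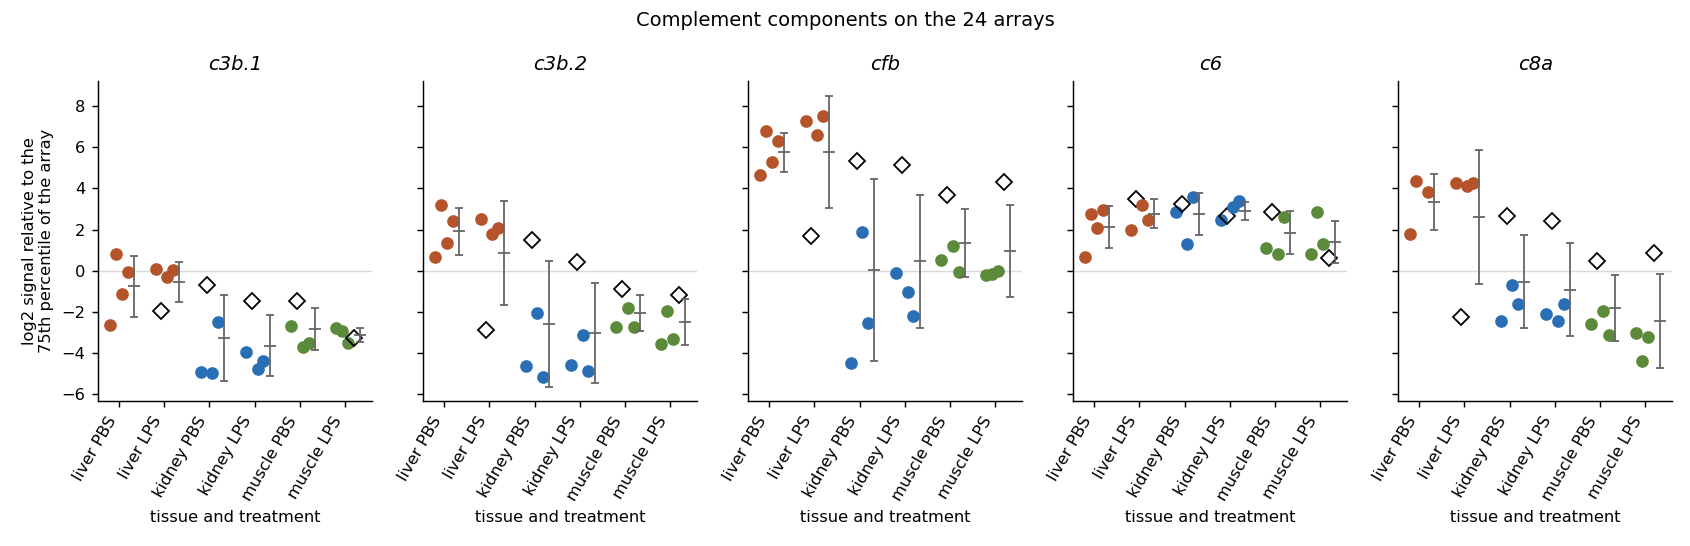
The log2 signal relative to the 75th percentile of the array (y axis) is plotted for the 5 complement genes with a probe in each of the 6 groups of tissue and treatment (x axis), each point being 1 array and the grey marks the mean ± SD, with open black diamonds for the 5 arrays whose hepatocyte marker sum stood apart. Apart from *c6*, the liver means were the highest in both treatments, and for *cfb* the diamonds lie towards the other tissues, at 1.71 on a liver array and 5.34 on a kidney array.

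By group means the order after PBS was liver, muscle, kidney for *c3b.1*, *c3b.2* and *cfb*, and liver, kidney, muscle for *c8a*. Kidney and muscle, the neighbours at the low end, lay at -3.27 ± 2.08 and -2.84 ± 1.03 (SD, n = 4 each) for *c3b.1* and at -0.52 ± 2.24 and -1.80 ± 1.59 (SD, n = 4 each) for *c8a*, differences smaller than the SD of the kidneys. For *c6* the order was kidney at 2.76 ± 1.0, liver at 2.12 ± 1.03 and muscle at 1.85 ± 1.06 (SD, n = 4 each), with no neighbours apart beyond their spread. After LPS *c6* was at 2.90 ± 0.42 in kidney, 2.78 ± 0.70 in liver and 1.41 ± 1.01 in muscle (SD, n = 4 each).

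The liver was compared with the kidney to ask in which tissue the complement transcripts were more abundant. After PBS, 3 of the 5 genes were called, all higher in the liver: *c3b.2* by 4.50 on the log2 scale (SE 1.33, 22.6-fold, limma adjusted p = 0.0210), *cfb* by 5.70 (SE 1.80, 52.0-fold, adjusted p = 0.0286) and *c3b.1* by 2.52 (SE 0.89, 5.73-fold, adjusted p = 0.0483). *c8a* missed the threshold at 3.87 (SE 1.60, limma adjusted p = 0.0934), and *c6* was at -0.64 (SE 0.62, limma adjusted p = 0.522). Of all genes tested, 24.6% were called in either direction and 15.1% were higher in the liver. The median difference of the 5 genes was 3.87, beside 0.02 over all genes tested. Of the 11 probes 7 were called, and the liver and kidney arrays of each gene overlapped.

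These calls changed with the arrays and settings used. The share of all genes called is not given for the fits on 8 arrays, with normexp or with 1 array left out. The counts of those fits therefore do not separate a change in the members from a change over all genes. With only the 8 arrays of the comparison in the fit 0 genes were called, and with normexp background correction 1, *c3b.2*. Without kidney PBS replicate 2 there were 4 called genes, *c8a* joining at 4.93 with a limma adjusted p of 0.0378. Without liver PBS replicate 2 or kidney PBS replicate 1 there were 0, without liver PBS replicate 4 there was 1, and without liver PBS replicate 3, kidney PBS replicate 3 or kidney PBS replicate 4 there were 2. Only leaving out liver PBS replicate 1 kept the count at 3. Without the 5 arrays whose hepatocyte markers stood apart, 4 genes were called: *c3b.1* at 3.39 (limma adjusted p = 0.00320), *c3b.2* at 5.87 (3.78e-05), *cfb* at 7.46 (7.11e-05) and *c8a* at 4.93 (5.33e-05), with *c6* at -0.47 (0.724). Of all genes 21.2% were then called in either direction and 14.7% were higher in the liver. The p values without the 5 arrays follow a choice of arrays tied to the genes tested and are no independent test.

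Liver and kidney arrays shared no slide, so tissue and slide cannot be told apart in this comparison or in that after LPS. Scan day was also partly bound to tissue, since kidney PBS replicates 1 to 3 were scanned on another day than the livers. With the scan day as a block, which sets the PBS livers against kidney PBS replicate 4 alone within a day, 0 genes were called, and the differences were 7.10 for *c3b.2* (limma adjusted p = 0.0528), 8.27 for *cfb*, 4.98 for *c8a*, 1.76 for *c3b.1* and -1.46 for *c6*.

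After LPS 1 of the 5 genes was called between liver and kidney, *c3b.1*, higher in the liver by 3.12 (SE 0.89, limma adjusted p = 0.0251), with 1 of the 4 kidney arrays well above background. Over all genes 16.6% were called in either direction and 9.1% were higher in the liver. The other differences were 5.33 for *cfb* (SE 1.80, limma adjusted p = 0.0581), 3.89 for *c3b.2* (SE 1.33, 0.0614), 3.54 for *c8a* (SE 1.48, 0.134) and -0.12 for *c6* (SE 0.62, 0.914). The median over the 5 genes was 3.54, beside 0.05 over all genes. The livers overlapped the kidneys for each gene, through replicate 2 of either tissue for all but *c6*.

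Leaving out liver LPS replicate 2 gave 4 called genes and leaving out kidney LPS replicate 2 gave 3, whereas leaving out liver LPS replicate 1, 3 or 4 or kidney LPS replicate 1, 3 or 4 gave 0. The share of all genes called with 1 array left out is not given, so these counts are a description only. Without all 5 arrays, 4 genes were called: *cfb* at 8.24 (limma adjusted p = 4.54e-05), *c3b.2* at 6.30 (2.91e-05), *c8a* at 6.28 (7.15e-06) and *c3b.1* (0.000603). The *c3b.1* probe was then well above background on 0 of 3 LPS kidneys, so its difference is a lower bound against the detection limit, at least 11.8-fold, and *c3b.2* was so on 1 of 3. *c6* stayed uncalled at -0.44 (limma adjusted p = 0.709). Over all genes 16% were called in either direction without the 5 arrays, and 9.28% were higher in the liver. The choice of the 5 arrays bears on these p values as it does after PBS. The PBS and LPS comparisons share no array, but both use the spread over all 24 arrays.

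**Figure D2:**
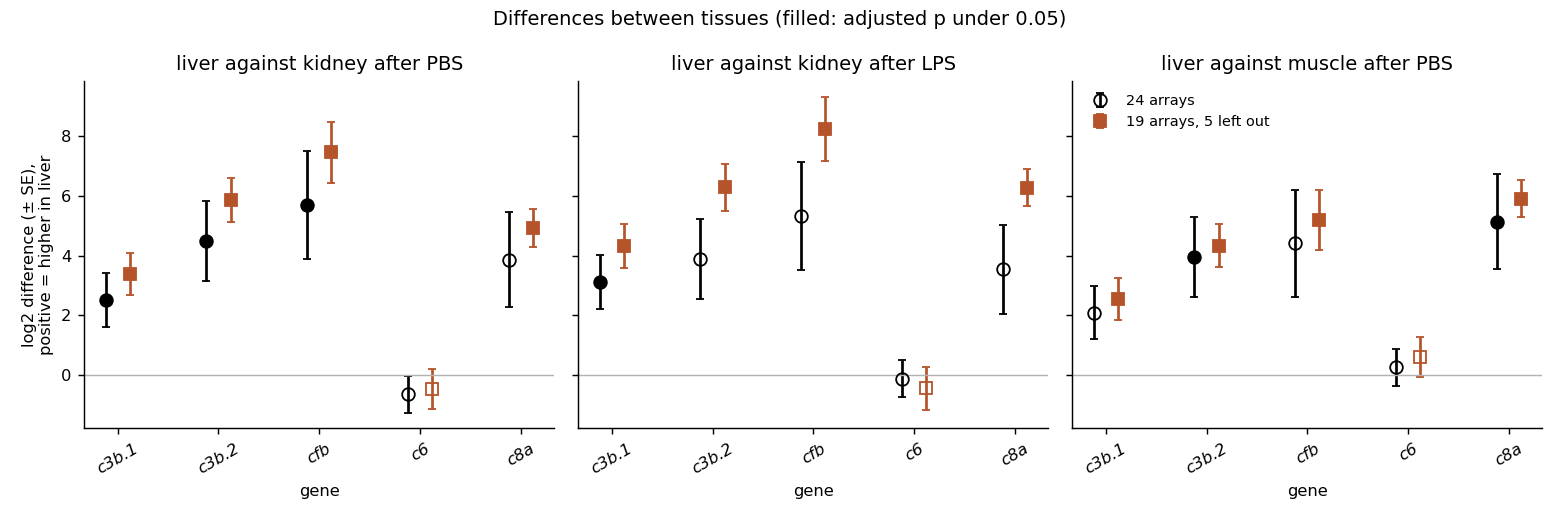
The log2 difference between tissues with its SE (y axis) is shown for the 5 complement genes (x axis) in liver against kidney after PBS, liver against kidney after LPS and liver against muscle after PBS, with circles for all 24 arrays, squares for the 19 arrays left without the 5 that stood apart, and filled symbols for adjusted p under 0.05. Leaving out the 5 arrays moved *cfb* from 5.70 to 7.46 after PBS and from 5.33 to 8.24 after LPS, while *c6* stayed between -0.64 and 0.61 in all panels.

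Against muscle after PBS, 2 genes were called, both higher in the liver: *c8a* by 5.15 (SE 1.60, 35.4-fold, limma adjusted p = 0.0348) and *c3b.2* by 3.96 (SE 1.33, 15.6-fold, adjusted p = 0.0499). Of all genes 21% were called in either direction and 9.71% were higher in the liver. The liver arrays of both genes, and of *cfb*, lay above all muscle arrays. The share of all genes without overlap is not given, so this separation is a description only. All PBS livers were scanned on day 3 and the PBS muscles on days 2 and 4, on other slides. Tissue, scan day and slide therefore cannot be told apart in this comparison. *cfb* differed by 4.42 (SE 1.80, limma adjusted p = 0.110), *c3b.1* by 2.09 (SE 0.89, 0.127) and *c6* by 0.27 (SE 0.62, 0.819), with a median of 3.96 over the 5 genes and -0.05 over all genes.

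The count was 3 without liver PBS replicate 1, 2 without liver PBS replicate 3 or muscle PBS replicate 2, 1 without muscle PBS replicate 3 or 4, and 0 without liver PBS replicate 2, liver PBS replicate 4 or muscle PBS replicate 1. These counts too are given without the share of all genes called. Without the 5 arrays 4 genes were called, *c8a* at 5.91 (limma adjusted p = 1.09e-05), *cfb* at 5.20 (0.00174), *c3b.2* at 4.34 (0.000544) and *c3b.1* at 2.56 (0.0195), and *c6* was at 0.61 (0.564). Of all genes 18.7% were then called in either direction and 9.81% were higher in the liver. Here too the p values follow a choice of arrays tied to the genes tested.

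The levels were then set beside the hepatocyte sum within each tissue, 15 relations in all. In the liver *cfb* followed the log2 sum over 8 arrays with r = 0.979 (exact permutation p = 0.000546, adjusted p = 0.00818) and rho = 0.929 (exact permutation p = 0.00223, adjusted p = 0.0335). Without the 2 arrays farthest from the median r was 0.921 over 6 arrays (exact permutation p = 0.0306, adjusted p = 0.458). The corresponding r fell from 0.968 over 7 arrays to 0.690 over 5 for *c8a*, from 0.925 to 0.571 for *c3b.2* and from 0.871 to 0.802 for *c3b.1*, so these relations rest in part on the 2 arrays, and for *c6* it was 0.05 over all 8 and 0.36 over 6.

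The kidney and muscle arrays fell into 2 with high and 6 with low sums, so no r is given over all 8. Over the 6 low kidneys r was 0.787 for *c8a* (exact permutation p = 0.0639), 0.395 for *c3b.1*, 0.206 for *cfb*, 0.141 for *c3b.2* and -0.06 for *c6*. Over the 6 low muscles r was 0.621 for *c3b.2*, 0.546 for *cfb*, 0.367 for *c8a*, 0.302 for *c6* and -0.55 for *c3b.1*. No relation without the 2 arrays passed adjustment over the 15, the lowest adjusted exact permutation p being 0.458.

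**Figure D3:**
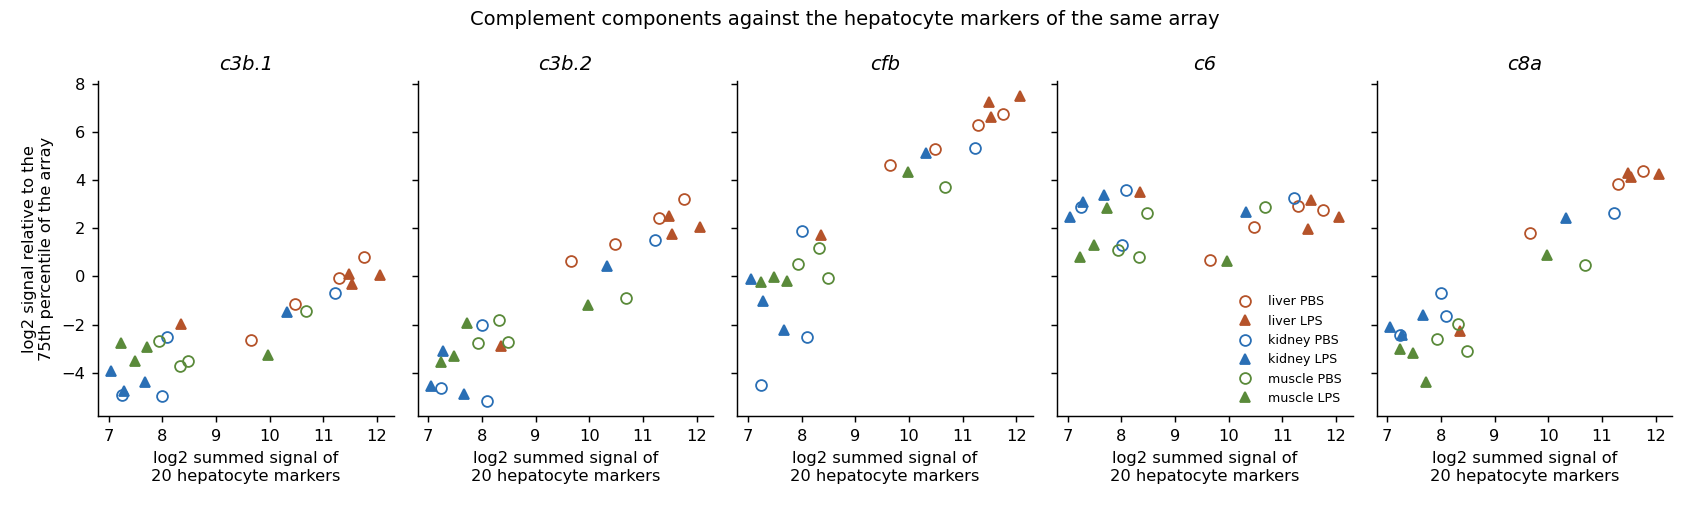
The log2 signal of each complement gene (y axis) is plotted against the log2 of the summed hepatocyte markers (x axis), 1 point per array in colours by tissue, with open circles for PBS and filled triangles for LPS. In the liver *cfb* rises with the sum (r = 0.979 over 8 arrays), the 2 kidney arrays with high sums are at 5.13 and 5.34, and *c6* shows no such pattern (r = 0.05 in the liver).

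The response to LPS was tested in each tissue alone. In the liver 0 of the 5 genes were called, where 0.666% of all genes were. Of the 11 probes 0 had an unadjusted p under 0.05, beside 6036 of all 40103 probes tested. Probes of 1 gene move together, so the 0 of 11 is a description only, here and in the other comparisons. The differences between LPS and PBS were 0.03 for *cfb* (SE 1.14, limma adjusted p = 1.0), 0.22 for *c3b.1* (SE 0.74, 0.979), -1.05 for *c3b.2* (SE 1.09, 0.740), -0.73 for *c8a* (SE 1.51, 0.913) and 0.66 for *c6* (SE 0.57, 0.657). The groups overlapped for each gene, and the median over the 5 was 0.03, beside 0.04 over all genes.

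Liver LPS replicate 2 moved these values. Without it and with no filter on raw signal, which would have dropped *cfb*, the differences were 1.38 for *cfb* (SE 0.56, limma adjusted p = 0.303), 0.89 for *c8a* (SE 0.65, 0.634), 0.70 for *c3b.1* (SE 0.71, 0.775), 0.42 for *c6* (SE 0.59, 0.807) and 0.20 for *c3b.2* (SE 0.60, 0.889). Of the 5, 0 were called, beside 0.902% of all genes. With the hepatocyte sum of each array as a covariate, also chosen after seeing the data, *c3b.2* was at -1.13 (SE 0.38, limma adjusted p = 0.159) and *cfb* at -0.065, and 0 were called. That fit, with no filter on raw signal, called 438 of all 12858 genes, beside 86 without the covariate. Within slides, with the slide as a block, the differences were 1.16 for *cfb*, 0.22 for *c3b.1*, 0.18 for *c3b.2*, 0.18 for *c8a* and -0.64 for *c6*, with 0 called, a comparison that rests on LPS replicate 1 as the only LPS array on a slide with PBS arrays. The oocyte markers (16 of 19 matched) summed to 184 to 817 in the PBS livers and 79.3 to 159 in the LPS livers and did not overlap. In the PBS kidneys they were at 960.3, 34.0, 854.9 and 26.6 for replicates 1 to 4, and in the LPS kidneys at 258 to 776. The muscles were at 217 to 2389 after PBS and 1211 to 1788 after LPS. The part of these markers in any of the differences was not tested. A p that misses the threshold does not show that the levels were the same: in the liver the SE of *cfb* was 1.14 on the log2 scale with all 8 arrays.

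In the kidney 0 of the 5 genes were called (0.0891% of all genes). None of the 11 probes had an unadjusted p under 0.05, beside 2731 of all 40143 probes tested. *cfb* differed by 0.40 (SE 2.32, limma adjusted p = 0.982) and *c6* by 0.14 (SE 0.52, 0.970), while *c3b.1* was at -0.38 (SE 1.1, 0.961), *c3b.2* at -0.44 (SE 1.66, 0.971) and *c8a* at -0.41 (SE 1.36, 0.967). The median was -0.38, beside -0.02 over all genes, and the groups overlapped for each gene. Without replicate 2 of both groups the values were 0.60 for *cfb*, 0.39 for *c6*, -0.23 for *c3b.1*, -0.23 for *c3b.2* and -0.46 for *c8a*, with 0 called. Within slides they were 3.85 for *cfb*, 2.78 for *c3b.2*, 0.94 for *c8a*, -0.84 for *c6* and -0.88 for *c3b.1*, a comparison that rests on kidney PBS replicate 4 as the only PBS array on a slide with LPS arrays. Kidney PBS replicates 1 to 3 were scanned on day 1, with 64.2% to 84.8% of spots well above background. PBS replicate 4 and all LPS kidneys were scanned on day 3, with 50.1% to 61.7%. Treatment and scan day can therefore hardly be told apart in the kidney.

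In the muscle 0 of the 5 genes were called, as were 0% of all genes. The differences ranged from -0.63 for *c8a* (SE 1.12) to -0.28 for *c3b.1* (SE 0.54), with -0.36 for *cfb* (SE 1.12), -0.45 for *c3b.2* (SE 0.65) and -0.45 for *c6* (SE 0.66), and limma adjusted p between 0.927 and 0.963. Of all 40405 probes tested, 1235 had an unadjusted p under 0.05, and 0 of these were among the 11. The median was -0.45, beside -0.09 over all genes, and the LPS and PBS arrays overlapped for each gene. Without PBS replicate 2 and LPS replicate 4 they were -0.97 for *c8a*, -0.69 for *cfb*, -0.51 for *c3b.2*, 0.15 for *c6* and 0.23 for *c3b.1*, with 0 called. Within slides the differences were -2.0 for *c8a*, -1.75 for *cfb*, -1.13 for *c3b.2*, -0.44 for *c6* and -0.18 for *c3b.1*, with 0 called. This comparison rests on slides 4 and 10, which held muscles of both treatments. On slide 4 LPS replicate 1 was set against PBS replicate 2 alone, whose hepatocyte markers stood apart.

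The difference between the LPS effects in liver and kidney was tested as an interaction, in which 0% of all genes were called and 0 of the 5. Of all 41796 probes tested, 3395 had an unadjusted p under 0.05, 0 of them among the 11. The LPS effect in the liver minus that in the kidney was 0.60 for *c3b.1* (SE 1.26), 0.52 for *c6* (SE 0.87), -0.33 for *c8a* (SE 2.18), -0.37 for *cfb* (SE 2.54) and -0.61 for *c3b.2* (SE 1.88). Without the 5 arrays 0 of the 5 were called, beside 0.00798% of all genes. The kidney side of the interaction carries the same overlap of treatment with scan day.

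**Figure D4:**
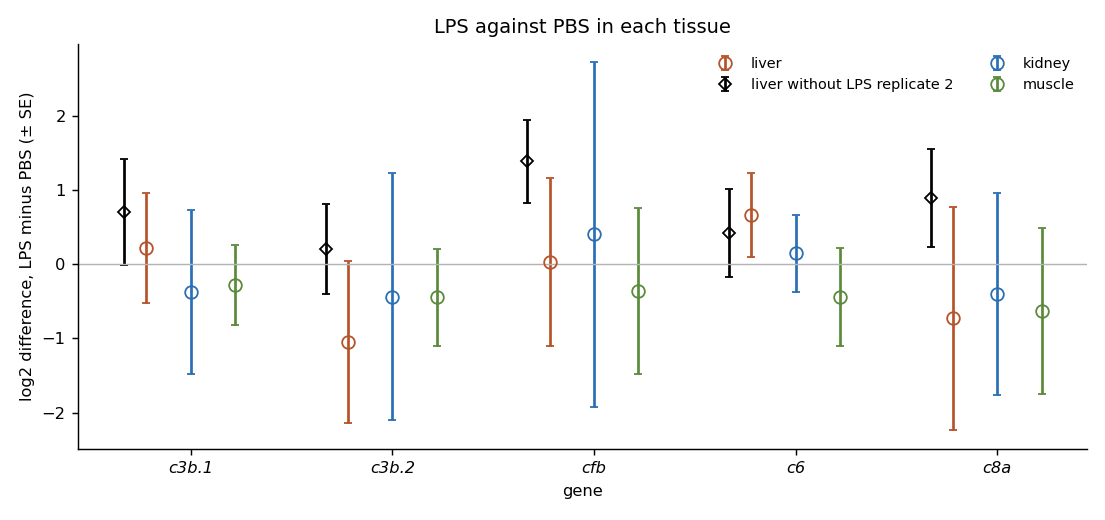
The log2 difference between LPS and PBS with its SE (y axis) is shown for the 5 complement genes (x axis) in liver, kidney and muscle, and diamonds mark the liver without LPS replicate 2 and without a filter. All of the adjusted p values were above 0.05, and for *cfb* in the liver the value moved from 0.03 to 1.38 without that array.

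The other complement genes were grouped by role, 25 of them with a probe. They comprise 9 that start the classical and lectin routes, 5 of the C3 family and alternative route, 1 of the terminal pathway and 10 inhibitors and receptors. After LPS 1 of 24 tested was called in the liver, 0 of 24 in the kidney and 0 of 24 in the muscle. The shares of all genes called were 0.666%, 0.0891% and 0%. The 1 gene was *cfbl*, a factor B-like gene, through 1 of its 2 probes: PBS livers were at -3.97 ± 0.99 and LPS livers at -1.08 ± 0.50 (SD, n = 4 each), without overlap. The limma adjusted p of this difference was 0.0491. This probe was well above background on 0 of 4 PBS livers and 3 of 4 LPS livers. Against the detection limit of the PBS arrays the rise was 3.07-fold. Since not every LPS liver was well above background, that fold is no strict lower bound. The brighter *cfbl* probe differed by 2.44 (SE 0.49, limma adjusted p = 0.0701). Without liver LPS replicate 2 and with no filter, 0 of 25 were called in the liver, beside 0.902% of all genes, and without the 2 high arrays of the tissue 0 of 24 were called in the kidney and 0 of 23 in the muscle.

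Between liver and kidney after PBS, 12 of 24 tested were higher in the liver and 5 lower, beside 15.1% of all genes higher in the liver and 24.6% in either direction. Without the 5 arrays 16 of 24 were higher and 5 lower, beside 14.7% of all genes higher in the liver and 21.2% in either direction. The values that follow are those of the probe with the lowest p, and on the brightest probe *mbl2* was at 4.61, *hbl4* at 4.54, *c1qb* at -2.19 and *vtnb* at 6.03 with a limma adjusted p of 0.0521. Of the 9 starting components 5 were higher and 3 lower. *c1r*, a protease of the C1 complex, was higher by 5.37 (SE 1.71, limma adjusted p = 0.0294), the lectin *mbl2* by 4.79 (SE 0.68, 4.46e-05) and the lectin gene *hbl4* by 4.22 (SE 1.07, 0.0111). The *c1r* probe was well above background on 2 of 4 PBS kidneys, so its difference rests in part on signal near background. The 3 that were lower were the chains of C1q, the recognition unit of the classical route, which macrophages are known to produce in mammals: *c1qa* at -2.30, *c1qb* at -2.43 and *c1qc* at -2.33.

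Of the 5 genes of the C3 family and alternative route, *c3a.3* was higher in the liver by 4.90 (SE 1.54, limma adjusted p = 0.0283), while *cfp*, properdin, a stabilizer of the convertase, was at -2.46 (SE 0.55, 0.00524) and *cfbl* was called lower (0.0159) through a probe well above background on 0 of 4 PBS livers, a difference of at least 1.87-fold. The brighter *cfbl* probe was at -1.50 (SE 0.59, limma adjusted p = 0.0743). The terminal gene *c8g* was not called. Of 9 inhibitors and receptors tested 6 were higher, the largest differences being those of *vtnb* at 6.02 (SE 1.95, limma adjusted p = 0.0322) and *vtna* at 4.74 (SE 1.61, 0.0406), both vitronectins, and *cfhl3*, a factor H-like gene, at 5.18 (SE 1.84, 0.0491). The probes of *vtnb* and *cfhl3* were well above background on 2 of 4 PBS kidneys, so these differences too rest in part on signal near background. After LPS 6 of 24 were higher in the liver and 0 lower, beside 9.1% of all genes higher and 16.6% in either direction. Without the 5 arrays 17 were higher and 0 lower, beside 9.28% and 16%. Against muscle after PBS 11 of 25 were higher and 1 lower, beside 9.71% and 21%. Without the 5 arrays 16 of 24 were higher than in muscle and 1 lower, beside 9.81% and 18.7%.

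**Figure D5:**
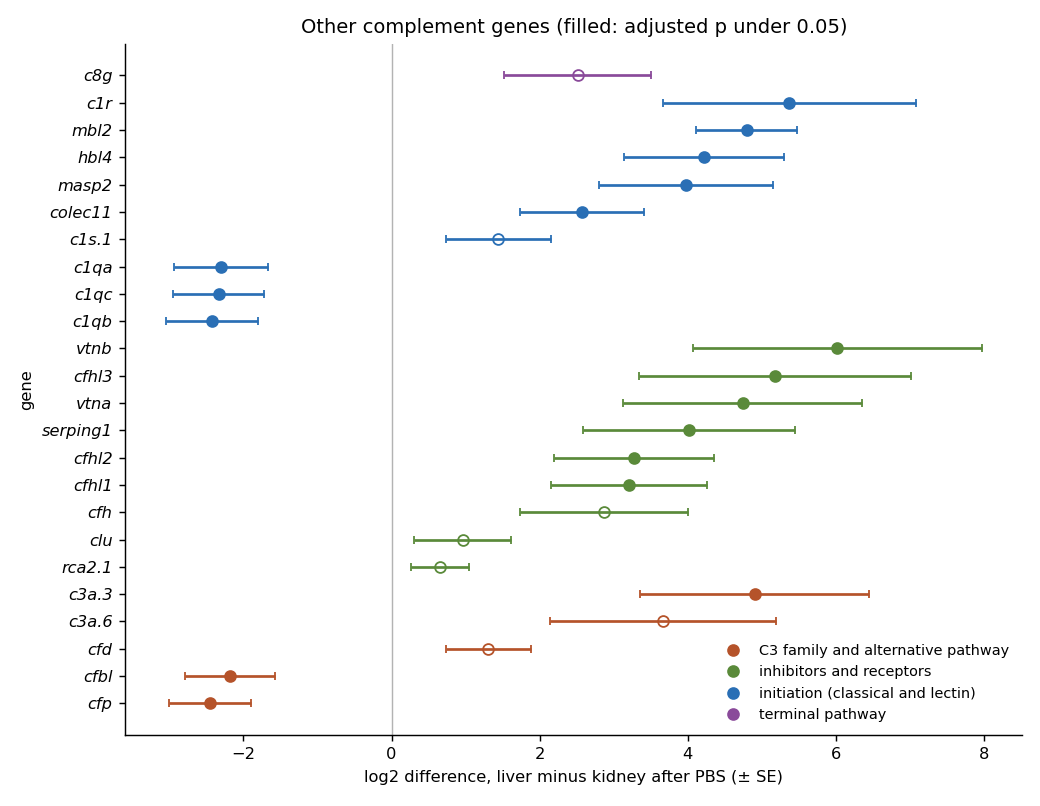
The log2 difference between liver and kidney after PBS with its SE (x axis) is shown for the 24 other complement genes tested (y axis), coloured by role, for the probe of each gene with the lowest p, and filled where the adjusted p was under 0.05. Of these genes 12 were higher in the liver and 5 lower, the 3 C1q chains among the latter.

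The genes whose levels were most like each complement gene over the arrays were listed, as a description of arrays that share tissue and depth. For *cfb* these were *itih3a.1* and *itih3b.1*, heavy chains of inter-alpha-trypsin inhibitor, both with r = 0.993, and *si:ch1073-126c3.2* with 0.992, among 10753 genes compared over 24 arrays. *c8a* was closest to *zgc:174260* (0.991), *zgc:174259* (0.986) and *serpina7* (0.985) over 23 arrays, and *c3b.2* to *ldhbb* and *f7l* (both 0.982) and *c1s.2* (0.971). *c3b.1* had lower values, with *hhip* at 0.934, *slc1a3a* at 0.919 and *zgc:77439* at 0.913. *c6* was most like *grhpra* (0.947), *hmgn6* (0.945) and *tox2* (0.945).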

How the data were processed

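The authors deposited, for each array, the spot table of Agilent's Feature Extraction, whose processed signal is an intensity after background subtraction, with no scaling between arrays. They also deposited normalized log2 values in 1 table. The file headers give version 10.7.3.1 of the software and the submitters' processing notes 10.4.0.0. The deposited log2 table, used as an alternative, carries a further offset per probe that is not described.

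On each array the 43803 processed signals were taken to log2, the spots marked as outliers were dropped and the 75th percentile was subtracted, and each probe received the mean of its spots. Probes were named by accession through RefSeq names of GRCz12tu, of which no coordinates were used, and *c6* was found as a synonym of *c6.2*. Probes entered a test if 1 or more of the compared arrays had a raw signal from the 20th to the 95th percentile. R 4.3.3 with limma 3.58.1 (lmFit, eBayes; statmod 1.5.0 for random blocks) compared LPS with PBS on the 8 arrays of a tissue and tissues on all 24 arrays in 6 groups. For a probe not well above background throughout a group, the fold was taken against, on each array, the higher of the probe's signal and the dimmest signal marked as well above background. Such a fold is a lower bound where every array of the brighter group was well above background. Exact permutation tests used scipy 1.17.1 and numpy 2.4.6. The fits were tested on simulated data. The number of arrays limits the precision.

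All 8 listed members were to be named, with other complement genes called after LPS or, up to 3 per role, with the largest called difference between liver and kidney after PBS, and the 3 genes most like each member. The C1q chains were named after their values were seen. The members and all lists were chosen with earlier results of these data known. Where 2 probes of a gene disagree, the call of any probe counts.

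The replicate numbers of the titles were checked as a pairing through the correlation across probes of deviations from the group means. Same-numbered arrays gave r between 0.301 and 0.640 for PBS with LPS in the kidney, between 0.119 and 0.580 for liver with kidney after PBS and between 0.194 and 0.588 for liver with muscle after PBS, each pair above 0.1. Unlike numbers ranged widely. Liver PBS 1 gave 0.651 with kidney PBS 3 and 0.437 with kidney PBS 1, while liver PBS 2 gave -0.668 with kidney PBS 3. Kidney PBS 3 gave 0.443 with kidney LPS 1 and 0.301 with kidney LPS 3. The check therefore does not show that equal numbers mark paired arrays, and PBS and LPS were given to different fish. A replicate block changed no call in these comparisons. In the other comparisons tested not all same-numbered pairs were above 0.1. Kidney with muscle after PBS, not tested as a comparison, gave r between 0.314 and 0.711 for equal numbers. There kidney PBS 4 gave 0.473 with muscle PBS 2 and 0.436 with muscle PBS 4. The oocyte marker sums after PBS were higher on replicates 1 and 3 than on 2 and 4 in all 3 tissues. Whether pools of equal number share fish was not tested.

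The alternatives were quantile normalization, a shift at the 50th percentile, normexp with an offset of 50 (on the median spot signal, in place of the mean signal that was planned), the deposited log2 table, other filters, gene means, blocks for slide, scan day and replicate, other sets of arrays and an adjusted p of 0.01.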

Additional observations from a re-analysis of the deposited data

Results flagged for a closer look

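Of 35 groups of 4 arrays (the 5 complement genes and the hepatocyte marker sum in each group where 4 arrays had a value), 6 held an array separated from the other 3 by most of the group's range. Chance alone sets apart about 1 in 20 such groups. The groups are not independent, since most of the genes follow each other and the marker sum over the same arrays. The 6 of 35 are therefore no test against that rate, and several of the 6 are the same array. On liver LPS replicate 2, *c3b.2* was at -2.89 where the next array was at 1.77, *c8a* was at -2.26 where the next was at 4.13, and *cfb* was at 1.71 where the next was at 6.62. The log2 of the summed hepatocyte markers was 8.35 on the same array, and 11.48 on the next. On kidney LPS replicate 2 *c8a* was at 2.42, above the next array at -1.62. On muscle LPS replicate 4 *cfb* was at 4.34, above the next at -0.02. These 3 arrays are among the 5 whose hepatocyte markers stood apart. The part of hepatocyte RNA in these values was not tested.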

How the results depend on the processing

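With 4 pools per group and 2 arrays of a tissue often apart, the comparisons had wide errors, and dim probes such as *c3b.1* in the kidney were near background. The counts of members below are given without the share of all genes called under the same setting, except where stated above. They do not separate a change in the members from a change over all genes. The calls after LPS in each tissue and the interaction stayed at 0 members under every alternative fitted. Liver against kidney after PBS (3 called) gave 1 with normexp and 0 with scan day as a block, with only the 8 arrays of the comparison or at an adjusted p of 0.01, and 0 to 4 when 1 array was left out. Liver against kidney after LPS (1 called) gave 2 with quantile normalization or normexp, 3 with a shift at the 50th percentile or with a filter on probes well above background, 0 at an adjusted p of 0.01, 0 to 4 when 1 array was left out and 4 without the 5 arrays. Liver against muscle after PBS (2 called) gave 0 at an adjusted p of 0.01, 0 to 3 when 1 array was left out and 4 without the 5 arrays. It could not be fitted with scan day as a block, because liver and muscle shared no scan day. The settings without the 5 arrays, without the high arrays of 1 tissue, without liver LPS replicate 2 and no filter, and with the hepatocyte sum as a covariate were chosen after seeing the data. They rest on hepatocyte markers that the analysed members other than *c6* follow in the liver.

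With the replicate block, liver against kidney after LPS, where not all same-numbered pairs were above 0.1, gave 3 called members. No other count of called members changed.

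The following log2 differences, none of them called, changed sign. For LPS in the liver *cfb* was at -0.33 with quantile normalization, -0.051 with the 50th percentile and -0.065 with the hepatocyte covariate, *c3b.2* was at 0.18, *c6* at -0.64 and *c8a* at 0.18 with the slide as a fixed block, and *c3b.2* at 0.20 and *c8a* at 0.89 without LPS replicate 2. For LPS in the kidney *c3b.1* was at 0.28 with normexp, *c3b.2* at 2.78, *c6* at -0.84 and *c8a* at 0.94 with the slide block, and *c3b.1* at 0.18, *c3b.2* at 0.41 and *c8a* at 0.35 with the covariate. For LPS in the muscle *c3b.2* was at 0.074, *c8a* at 0.44 and *cfb* at 0.77 with the covariate, and *c3b.1* at 0.23 and *c6* at 0.15 without the 2 high arrays. *c6* was at 0.015 with the 50th percentile and 0.19 with gene means for liver against kidney after LPS, and at -0.0097 with gene means for liver against muscle. In the interaction *c3b.1* was at -0.12 with normexp, and without the 5 arrays *c3b.2* was at 0.43, *c8a* at 1.35 and *cfb* at 0.78. The causes were not tested.

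Leaving out 1 array gave ranges across 0. They were -0.40 to 0.74 (*c3b.1*), -1.60 to 0.20 (*c3b.2*), -1.50 to 0.89 (*c8a*) and -0.55 to 0.37 (*cfb*, 1.38 without LPS replicate 2 and no filter) for LPS in the liver. In the kidney they were -1.10 to 0.49 (*c3b.1*), -1.60 to 0.93 (*c3b.2*), -0.34 to 0.42 (*c6*), -1.52 to 0.65 (*c8a*) and -1.16 to 2.16 (*cfb*), and in the muscle -0.57 to 0.18 (*c3b.1*), -1.73 to 0.13 (*c8a*) and -1.48 to 0.43 (*cfb*). For *c6* they were -0.36 to 0.15 (liver against kidney after LPS) and -0.080 to 0.75 (liver against muscle). In the interaction they were -0.27 to 1.32 (*c3b.1*), -1.97 to 0.64 (*c3b.2*), -1.39 to 1.30 (*c8a*) and -2.14 to 1.19 (*cfb*).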
